A study of Homo sapiens with 6 samples.

Results

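Aminoacyl-tRNA synthetases are the enzymes that attach each amino acid to its transfer RNA. A list of 35 human synthetase genes was chosen by name for this account, of which 19 encode enzymes of the cytosol and 16 encode enzymes of the mitochondrial matrix. Of these, 32 were measured by at least 1 probe set that carried a single gene symbol (17 cytosolic and 15 mitochondrial genes, out of 19775 genes in all), through 67 probe sets. MARS1, QARS1 and TARS2 were represented by probe sets that also carry the symbol of a microRNA gene, so no value is given for them.

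The samples came from IGROV1, an established human ovarian carcinoma line, stained with the DNA dye Hoechst 33342 and sorted with no other treatment. Cells that keep little of the dye form the side population (SP), and the cells sorted outside that gate are called non-SP. Each group had 3 samples and each sample was hybridised to 1 array, so the number of arrays limits the precision. The labels call them biological replicates without naming cultures or sort days, so a p-value here reflects spread that could be technical. All RNA came from 1 cell line. In bulk RNA, fewer cells with a transcript and less of it per cell cannot be told apart.

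Both compartments need their own set of synthetases because the mitochondrion translates the few proteins encoded by its own genome. The mitochondrial enzymes are encoded in the nucleus by separate genes, with GARS1 and KARS1 as the known cases in which 1 gene supplies both compartments. When amino acids run short, uncharged tRNA activates the kinase GCN2 (EIF2AK4), translation slows, and the transcription factor ATF4 induces genes of amino acid synthesis and uptake, among them ASNS (asparagine synthetase) and many cytosolic synthetases.

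Every array was normalized to nearly the same median, 5.90 to 5.95 on the log2 scale over the probe sets with 1 gene. All 7 epithelial and ovarian carcinoma markers lay above the median level of all genes, with EPCAM highest at a mean of 12.13. Of the 5 leukocyte markers measured 0 lay above it, and COL1A1 and CDH5 were the single fibroblast and endothelial markers that did. Leukocyte marker means lay between 2.43 and 5.35.

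ASNS itself was used to order the arrays. Its log2 level was 9.60, 12.64 and 9.90 on non-SP replicates 1, 2 and 3 and 9.78, 12.39 and 12.43 on SP replicates 1, 2 and 3. The line drawn at a log2 level of 11 thus put 3 arrays above it, 2 of SP and 1 of non-SP cells, and 3 below. These 2 sets cut across the sorted groups, were read from the data and are not groups of the study. Values are therefore given array by array, without a test between the sets. The gap of a gene is the log2 distance that separates the 3 arrays above the line from the 3 below, from the nearest value on each side. The 3 arrays above the line also had a larger ACTB 3' minus 5' control signal (2.46 to 2.55, against 2.02 to 2.29), a measure of how evenly a transcript was copied, while that of GAPDH overlapped (0.04 to 0.36 and 0.04 to 0.15). The summed log2 level of the epithelial markers was 70.7 to 71.6 above the line and 72.9 to 73.6 below it, with KRT19 lower by a gap of 0.67, MUC1 lower by 0.39 and CDH1 higher by 0.11. The sums overlapped for the fibroblast (26.5 to 27.6 and 26.6 to 27.5), leukocyte (18.5 to 20.0 and 18.3 to 19.2) and endothelial markers (20.5 to 21.3 and 20.4 to 21.2). The part of the ACTB signal and of these markers in the results was not tested.

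Cytosolic synthetase genes stood higher on the arrays with high ASNS. For 13 of the 17 measured genes all 3 arrays above the line exceeded all 3 below it, for 0 the order was reversed, and for 4 the sets overlapped. Over all genes 13.1% were higher in this way and 13.7% lower, and among the genes above the median level 20.3% and 19.0%. A gap of more than 0.5 log2 units was found for 7 cytosolic genes, against 2.33% of all genes and 3.99% of genes above the median level. The mitochondrial genes were divided: 3 of 15 were higher, 5 lower and 7 overlapping, and 1 had a gap over 0.5, on the lower side (1.16% of all genes, 1.98% of genes above the median level).

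**Figure D1:**
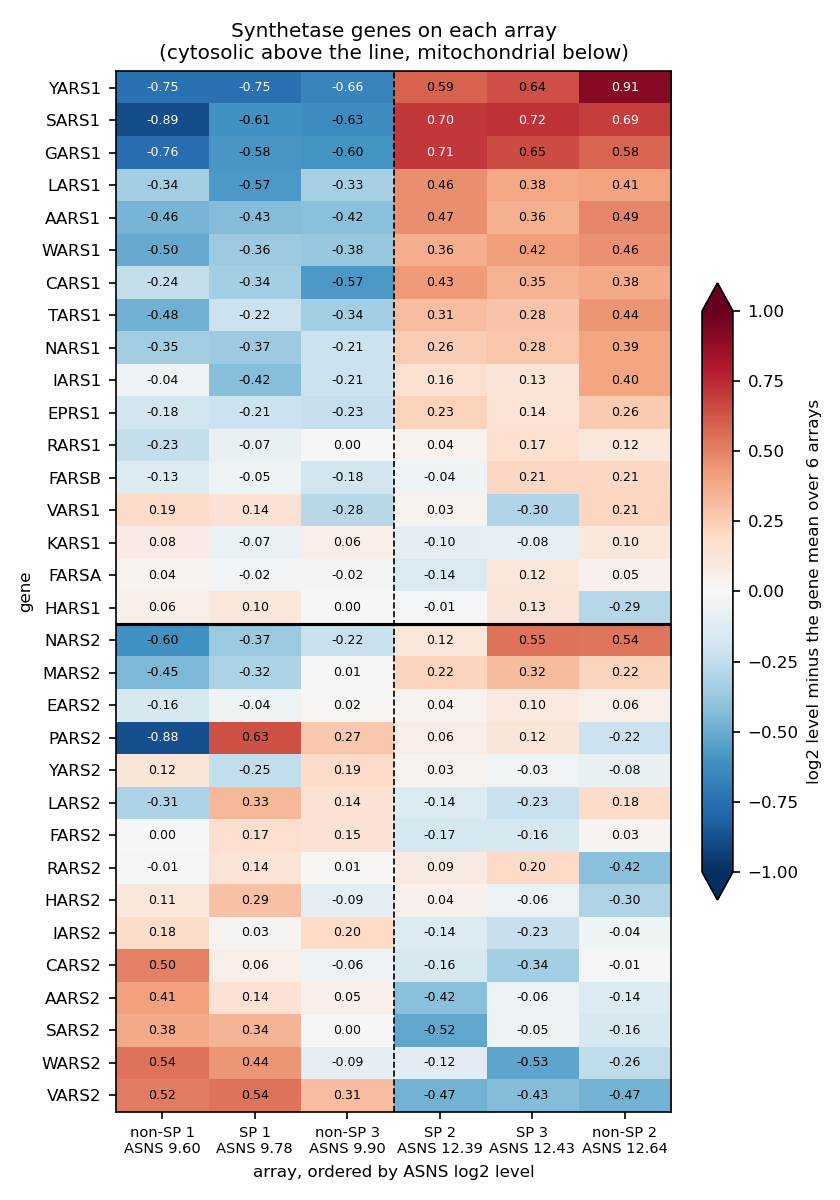
Log2 level of each of the 32 measured synthetase genes on each array minus the gene's mean over the 6 arrays, in colour and as printed values. Columns are arrays in order of ASNS level, the dashed line marks a log2 level of 11, and the solid line parts cytosolic from mitochondrial genes. From YARS1 down to FARSB, 13 cytosolic rows are higher in the 3 right-hand columns, whereas VARS2 is lower there.

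The widest separation was in SARS1, which encodes the seryl enzyme. It measured 10.17, 11.75 and 10.43 on non-SP replicates 1 to 3 and 10.45, 11.76 and 11.78 on SP replicates 1 to 3, a gap of 1.30, or 2.46-fold. The separation was present inside each sorted group: non-SP replicate 2 exceeded the other non-SP arrays by at least 1.33, and SP replicates 2 and 3 exceeded SP replicate 1 by at least 1.31. YARS1, the tyrosyl enzyme, gave 8.59, 10.25 and 8.68 in non-SP and 8.59, 9.93 and 9.98 in SP cells, with a gap of 1.25 (2.37-fold) and the largest range of any cytosolic member, 1.66. GARS1, the glycyl enzyme that serves cytosol and mitochondrion, gave 10.91, 12.25 and 11.07 in non-SP and 11.09, 12.38 and 12.32 in SP cells. Its gap was 1.16 (2.23-fold). In these 3 genes the arrays below the ASNS line lay close together, and the step up to the other arrays was several times their spread.

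A second tier had gaps between 0.50 and 0.78. AARS1, the alanyl enzyme, measured 10.31, 11.26 and 10.35 in the 3 non-SP samples and 10.34, 11.24 and 11.13 in the 3 SP samples (gap 0.78). LARS1, the leucyl enzyme, which is also known as a leucine sensor for mTORC1, measured 10.47, 11.22 and 10.48 in non-SP and 10.24, 11.28 and 11.20 in SP samples (gap 0.72). WARS1, the tryptophanyl enzyme, known also to be induced by interferon, measured 10.53, 11.49 and 10.65 and then 10.67, 11.39 and 11.45 (gap 0.71). In each of the 3 genes non-SP replicate 2 was close to SP replicates 2 and 3, and SP replicate 1 was close to non-SP replicates 1 and 3. CARS1, the cysteinyl enzyme, was at 10.49, 11.11 and 10.16 in non-SP and 10.39, 11.16 and 11.08 in SP cells (gap 0.59). TARS1, the threonyl enzyme, was at 10.00, 10.92 and 10.14 in non-SP and 10.26, 10.79 and 10.76 in SP cells (gap 0.50). Below these came NARS1 for asparagine (gap 0.48), EPRS1, which joins the glutamyl and prolyl enzymes in 1 protein (0.32), and IARS1 for isoleucine. IARS1 measured 10.94, 11.38 and 10.77 in non-SP and 10.56, 11.14 and 11.11 in SP samples, with a gap of 0.17. The gaps of RARS1 (0.04) and FARSB (0.01) are too narrow to part the sets.

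The 4 cytosolic genes whose sets overlapped were FARSA, HARS1, KARS1 and VARS1. KARS1, the lysyl enzyme of both compartments, was the flattest member: 11.66, 11.68 and 11.64 in non-SP and 11.51, 11.48 and 11.50 in SP cells, a range of 0.20. HARS1, the histidyl enzyme, gave 9.67, 9.32 and 9.61 in non-SP and 9.71, 9.60 and 9.74 in SP cells, its lowest value on the array with the highest ASNS. The phenylalanyl enzyme is built from the products of FARSA and FARSB, whose ranges were 0.26 and 0.39. VARS1, the valyl enzyme, ranged over 0.51, with high and low arrays on both sides of the ASNS line.

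Several cytosolic synthetases form a multisynthetase complex. Of its 5 measured enzymes EPRS1, IARS1, LARS1 and RARS1 were higher and KARS1 overlapped, and LARS1 alone had a gap over 0.5. AIMP1, a scaffold protein of the complex, measured 10.48, 11.23 and 10.56 in non-SP and 10.58, 11.25 and 11.14 in SP cells (gap 0.56). Of the 12 measured enzymes outside the complex 9 were higher and 6 had a gap over 0.5. Synthetases also fall into 2 structural classes with unrelated catalytic folds. Among cytosolic members 7 of 8 class I and 6 of 9 class II genes were higher, and among mitochondrial members 2 of 9 and 1 of 6. EPRS1, which joins an enzyme of each class, was counted in class I only. The share of higher genes was 13.1% over all genes and 20.3% among those above the median level, and the mitochondrial counts are near the latter. For a gap over 0.5 on the higher side these shares were 2.33% and 3.99%.

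The values of single probe sets bear on how far a gene's pattern can be read. Of 34 cytosolic probe sets 21 were higher and 2 lower, where over all 41091 probe sets with 1 gene 12.2% were higher and 12.6% lower. All 4 probe sets of LARS1, all 3 of EPRS1 and both of SARS1 and of WARS1 were higher, although the dimmest LARS1 probe set had a gap of 0.01, the dimmest EPRS1 one 0.11 and the second SARS1 one 0.35 rather than 1.30. Of the 4 CARS1 probe sets the brightest pair were higher and the other pair overlapped. The lower ones were the dimmer probe sets of YARS1 (6.48 to 6.56 on the arrays with high ASNS, 6.81 to 7.02 on the others) and TARS1 (5.16 to 5.57 and 5.70 to 6.01). Of 33 mitochondrial probe sets 4 were higher and 6 lower. The brightest EARS2 probe set was higher by 0.02, but the third by level was lower by 0.20 and the others overlapped. For RARS2 the fifth probe set by level (4.13 to 5.39 over the arrays) was higher by 0.63, while its others overlapped.

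Because ATF4 is known to bind composite elements with the core TGATGNAA, the promoter windows of RefSeq (assembly GRCh38.p14, 250 bases before to 50 after a start site) were searched for it on both strands. It was found in 7 of 16 cytosolic genes with a window, in 1 of 14 mitochondrial genes and in 4.46% of 27305 genes (a gene counts once, however many windows it has). LARS1, VARS1, YARS1, AARS2 and VARS2 were not in the table used. The core stood in AARS1, CARS1, GARS1, IARS1, NARS1 and TARS1 (6 of the 11 higher cytosolic genes with a window), in MARS1, and in 0 of the 3 overlapping ones (FARSA, HARS1 and KARS1). Other patterns, chosen like this one with the results known, were searched in the same way. Of these CCAAT was found in 7 cytosolic, 9 mitochondrial and 39.7% of all genes, GTTACA in 0, 1 and 8.07%, TGACGTCA in 0, 0 and 2.25%, a narrower form of the same core in 7, 0 and 1.2%, and the GFY element in 0, 0 and 1.45%. CCAAT parted the cytosolic genes with a window in the same numbers as the core, in 6 of the 11 higher and 0 of the 3 overlapping ones. EPRS1, FARSB, RARS1, SARS1 and WARS1 were higher on the arrays with high ASNS without the core in these windows. A match is a string of letters and not a measured binding site.

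The 6 measured cytosolic genes, ASNS and the single mitochondrial gene with the core are shown to set its letters side by side, each as 30 bases read on the strand where the core reads TGATGNAA, with the core in capitals.
AARS1 (chr16:70289675-70289704, plus strand, core at -187 to -180 from the start site): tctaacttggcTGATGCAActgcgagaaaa
CARS1 (chr11:3057407-3057436, plus strand, -2 to 6): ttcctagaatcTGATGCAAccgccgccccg
GARS1 (chr7:30594834-30594863, minus strand, -33 to -26): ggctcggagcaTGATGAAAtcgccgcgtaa
IARS1 (chr9:92293692-92293721, plus strand, -13 to -6): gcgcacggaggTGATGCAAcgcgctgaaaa
NARS1 (chr18:57621804-57621833, minus strand, 15 to 22): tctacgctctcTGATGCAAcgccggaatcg
TARS1 (chr5:33440956-33440985, minus strand, 3 to 10): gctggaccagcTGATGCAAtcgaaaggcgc
ASNS (chr7:97872458-97872487, minus strand, -68 to -61): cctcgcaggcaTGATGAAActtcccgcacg
YARS2 (chr12:32756076-32756105, minus strand, -197 to -190): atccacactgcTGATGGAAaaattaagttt
The 5 cytosolic genes other than GARS1 share TGATGCAA, GARS1 and ASNS share TGATGAAA, and YARS2 has TGATGGAA. Positions are counted from the first transcribed base as 1, in the direction of transcription, and CARS1, GARS1, TARS1 and ASNS each have a further start site whose window lacks the core.

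For AARS1 the 250 bases upstream of the start site (chr16:70289507-70289756, minus strand, in the direction of transcription) show the core in its setting; it appears in capitals as TTGCATCA, the same 8 bases read on the other strand.
AARS1 upstream: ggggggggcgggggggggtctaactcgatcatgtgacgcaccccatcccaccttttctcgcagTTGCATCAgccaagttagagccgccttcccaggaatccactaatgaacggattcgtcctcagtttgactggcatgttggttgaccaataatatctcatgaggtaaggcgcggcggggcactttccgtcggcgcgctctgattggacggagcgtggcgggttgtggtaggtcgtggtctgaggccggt

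Mitochondrial synthetase genes did not move as a block. VARS2, the mitochondrial valyl enzyme, gave 11.04, 10.05 and 10.83 on non-SP replicates 1 to 3 and 11.06, 10.05 and 10.09 on SP replicates 1 to 3. It was lower by a gap of 0.74 (1.67-fold) on the arrays with high ASNS, the mirror image of the cytosolic pattern. WARS2 (tryptophan) gave 8.12, 7.32 and 7.49 in non-SP and 8.02, 7.46 and 7.05 in SP cells, lower by 0.03. AARS2 (alanine) gave 9.52, 8.97 and 9.16 in non-SP and 9.25, 8.69 and 9.05 in SP cells, lower by 0.10. IARS2 (isoleucine) gave 11.23, 11.01 and 11.25 in non-SP and 11.08, 10.91 and 10.82 in SP cells, lower by 0.07. The fifth gene on the lower side, SARS2 (serine), had a gap of 0.06, so that VARS2 was the one mitochondrial member clearly parted from the rest on that side.

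NARS2, the mitochondrial asparaginyl enzyme, went the other way. It measured 7.70, 8.84 and 8.08 in non-SP and 7.93, 8.42 and 8.85 in SP cells and was higher by a gap of 0.34. MARS2 (methionine) was higher by 0.21 and EARS2, the glutamyl enzyme, by 0.02. PARS2, the prolyl enzyme, had the largest range of any mitochondrial member, 1.51, without following ASNS: 7.04, 7.70 and 8.19 in non-SP and 8.55, 7.98 and 8.04 in SP cells. CARS2 (cysteine) was at 10.30, 9.79 and 9.74 in non-SP and 9.86, 9.64 and 9.46 in SP cells, and its sets overlapped. FARS2, HARS2, LARS2, RARS2 and YARS2 overlapped as well.

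To set the compartments side by side, each gene was centred on its mean over the 6 arrays and the median of each list was taken on each array. The cytosolic median was -0.24, 0.39 and -0.28 on non-SP replicates 1 to 3 and -0.34, 0.26 and 0.28 on SP replicates 1 to 3. The mitochondrial median was 0.11, -0.07 and 0.02, then 0.15, -0.12 and -0.06. Cytosolic minus mitochondrial, the level was -0.35, 0.47 and -0.29 in non-SP and -0.49, 0.37 and 0.33 in SP samples. The difference was thus above 0 on the 3 arrays with high ASNS and below 0 on the 3 others, in both sorted groups. The mitochondrial medians alone also separated, the other way and by less, while the median of all genes stayed between -0.03 and 0.02 on every array.

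**Figure D2:**
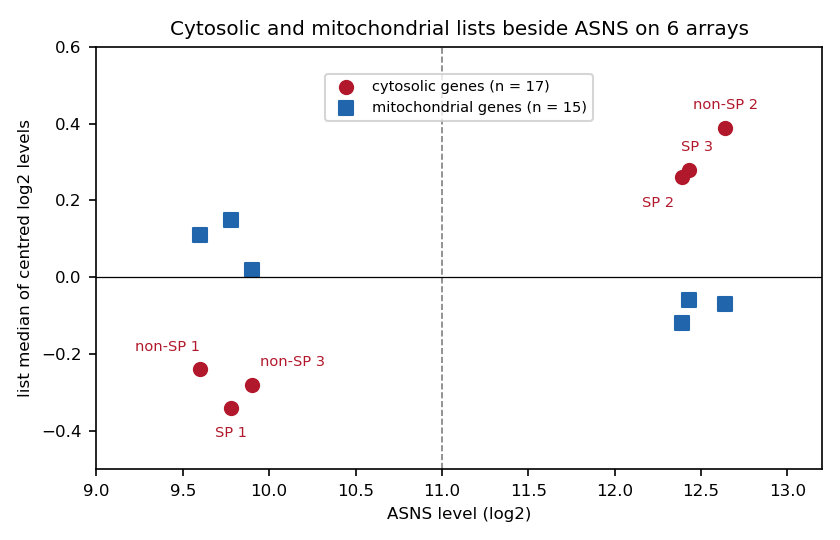
Median centred log2 level of the 17 cytosolic genes (red circles) and of the 15 mitochondrial genes (blue squares) on each of the 6 arrays, against the ASNS log2 level of that array; the dashed line is at 11. The cytosolic medians lie at -0.34 to -0.24 on the left and 0.26 to 0.39 on the right, and the mitochondrial medians lie at 0.02 to 0.15 on the left and -0.12 to -0.06 on the right.

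Enzymes for the same amino acid can be compared directly, as 13 pairs over 12 amino acids. EPRS1, which joins the glutamyl and prolyl enzymes, was not paired with EARS2 or PARS2, so glutamate and proline are left out. The difference between the centred cytosolic and mitochondrial levels was higher on all 3 arrays with high ASNS in 9 pairs, lower in 0 and overlapping in 4. No share over other gene pairs was computed to set beside this count, and FARS2 enters 2 of the pairs. The serine pair (SARS1 and SARS2) had the widest gap, 1.40, followed by tyrosine (1.07), alanine (0.89), cysteine (0.79) and tryptophan (0.77). The valine pair (gap 0.46) reached it through its mitochondrial member, since VARS2 ranged over 1.01 and VARS1 over 0.51. In the asparagine pair both members were higher on the same arrays, and their difference overlapped.

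**Figure D3:**
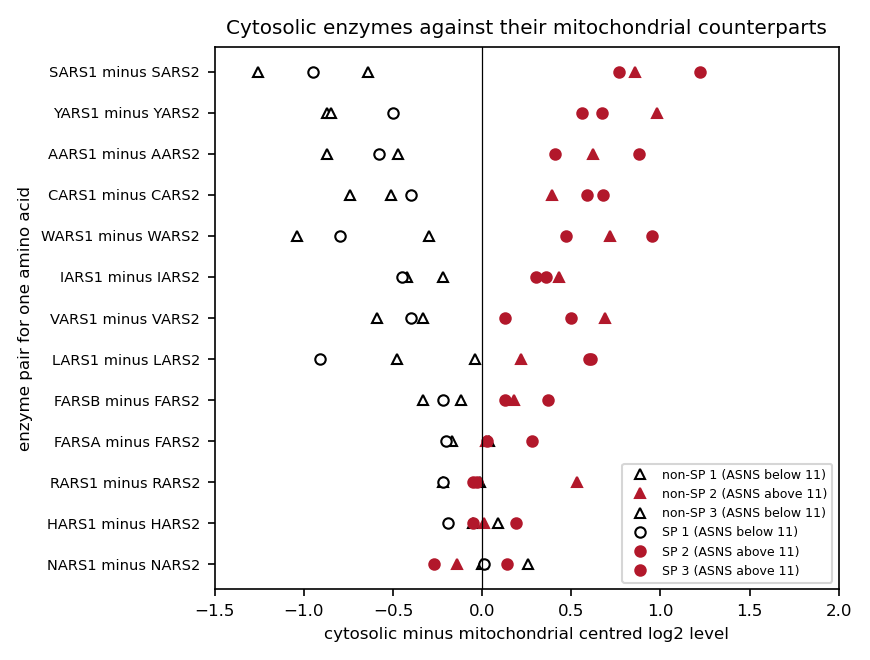
Cytosolic minus mitochondrial centred log2 level for each of the 13 enzyme pairs, with 1 symbol per array; triangles are non-SP and circles SP arrays, filled red where ASNS was above 11 and open where it was below. Filled symbols lie to the right of all open ones in 9 pairs, with the gap widest for SARS1 minus SARS2, 1.40.

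HARS1 and HARS2 lie head to head on chromosome 5 and their start sites are 84 bases apart, and the difference between their centred levels lay between -0.19 and 0.19 over the 6 arrays, with the ASNS sets overlapping. The stretch between both start sites (GRCh38.p14, chr5:140691371-140691454, plus strand, reading away from HARS1 towards HARS2) is given because the pair shares it; it holds no TGATGNAA and no CCAAT.
HARS1 to HARS2: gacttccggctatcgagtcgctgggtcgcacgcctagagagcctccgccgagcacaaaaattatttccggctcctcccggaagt

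Other genes of tRNA charging gave the surroundings. In the amino acid response list, to which ASNS belongs, 20 of 27 measured genes were higher on the arrays with high ASNS and 0 lower, 19 of 26 without ASNS. The shares were 13.1% higher and 13.7% lower over all genes, and 20.3% and 19.0% among the genes above the median level. A gap over 0.5 on the higher side was found for 13 of the 27, against 2.33% of all genes and 3.99% of genes above the median level. For 7 genes the sets overlapped, DDIT3, CHAC1 and SESN2 among them, and ATF4 itself was higher by only 0.02. These genes were named after their values were seen. NUPR1, a stress-induced chromatin protein, measured 6.58, 10.49 and 6.74 in non-SP and 6.11, 9.71 and 9.74 in SP cells, and SLC7A11, the cystine transporter, had a gap of 2.82. VLDLR, a lipoprotein receptor gene induced by ATF4, had a gap of 1.83. In the list of tRNA export and trimming 4 of 5 were higher, among them XPOT, the nuclear export receptor for tRNA (gap 0.81), XPO5 (0.75) and DTD1, which removes D-amino acids from tRNA (0.81), whereas TRNT1, which adds the CCA end, overlapped. Of 8 measured genes for sensing uncharged tRNA and for eIF2, 2 were higher and 1, PPP1R15A, lower (gap 0.36). These counts are near the shares among the genes above the median level. EIF2S1, the phosphorylated subunit of eIF2, was higher by 0.09, and IMPACT and PPP1R15B overlapped.

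Partners of the mitochondrial enzymes were divided, with gaps under 0.5. Of 8 genes for mitochondrial tRNA charging and modification 3 were higher and 1 lower (13.1% and 13.7% of all genes), with gaps of 0.27 for MTO1 and 0.22 for MTFMT, the formyltransferase for initiator tRNA. The lower one was TRMU, which modifies mitochondrial tRNA with sulfur, named after its values were seen, with a gap of 0.25. Mitochondrial glutaminyl-tRNA is made by an amidotransferase whose subunits are encoded by QRSL1, GATB and GATC. GATC was higher by a gap of 0.02, and QRSL1 and GATB overlapped. Of 8 mitochondrial translation factors 2 were higher and 2 lower, with gaps of 0.23 for MTRF1, 0.06 for GFM1 and 0.07 for MTIF3. Of the 4 measured cytosolic elongation factor genes 0 were higher and 2 lower, EEF2 by 0.22 and EEF1D by 0.09, while EEF1A1 ranged over 0.10 in all.

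The sorted groups themselves were compared over all 6 arrays. By limma with Benjamini-Hochberg adjustment over all genes, 0 of 17 cytosolic and 0 of 15 mitochondrial synthetase genes passed an adjusted p of 0.05, against 0.00506% of all genes, and 0 had an unadjusted p under 0.05, against 6.78%. Adjusted p lay between 0.867 and 0.983 for cytosolic and between 0.820 and 0.997 for mitochondrial genes. The SP minus non-SP difference was above 0 for 13 of 17 cytosolic genes (45.2% of all genes) with a median of 0.15, and for 6 of 15 mitochondrial genes with a median of -0.11, where the median over all genes was -0.02.

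The SP group held 2 arrays above the ASNS line and the non-SP group 1, so values are also given on each side of it. Mean SARS1 was 11.33 ± 0.76 for SP and 10.79 ± 0.85 for non-SP (SD, n = 3 each), and SP exceeded non-SP by 0.54 (95% confidence interval -0.70 to 1.79). Between arrays on the same side of the ASNS line, SP minus non-SP was 0.01 above it and 0.15 below it. For GARS1, at 11.93 ± 0.73 and 11.41 ± 0.73 (SD, n = 3 each), the difference was 0.52 (interval -0.61 to 1.66), with 0.10 on either side of the line. For YARS1 it was 0.33 (interval -1.01 to 1.66), with -0.29 and -0.05. With 1 array left out the difference of SARS1 ran from 0.24 to 1.03, that of GARS1 from 0.27 to 0.94 and that of YARS1 from 0.03 to 0.86, the lowest without non-SP replicate 1 and the highest without non-SP replicate 2, which for GARS1 was equalled without SP replicate 1. The second SARS1 probe set differed by 0.04. The median over the cytosolic genes was -0.07 on the arrays above the line and 0.05 on those below, and over the mitochondrial genes -0.06 and 0.10. The intervals of SARS1, GARS1 and YARS1 each reach beyond a doubling in SP cells, so these arrays do not exclude an increase of that size. A halving lay outside the intervals of SARS1 and GARS1 (lower limits -0.70 and -0.61) and inside that of YARS1 (-1.01).

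Counted over both directions, groups without overlap were not more frequent among the members than among all genes (4.78% higher and 7.10% lower in SP cells). KARS1 was the 1 cytosolic gene whose groups did not overlap (7.10% of all genes were lower in SP cells in this way), at 11.50 ± 0.02 for SP and 11.66 ± 0.02 for non-SP (SD, n = 3 each), differing by -0.16 (interval -0.41 to 0.08; limma adjusted p = 0.867). The SE behind this interval, 0.10, includes spread that limma borrows from other genes. The second KARS1 probe set differed by -0.17, its highest SP value at 10.33 just under its lowest non-SP value at 10.34. RARS2, the mitochondrial arginyl enzyme, was the 1 mitochondrial gene without overlap (4.78% of all genes were higher in SP cells), with 9.26, 8.85 and 9.28 in non-SP and 9.41, 9.36 and 9.47 in SP cells and a difference of 0.28 (interval -0.08 to 0.64; limma adjusted p = 0.820). Of its other probe sets, ranked by level, numbers 2, 4 and 5 differed the same way (0.21, 0.85 and 0.30), the first 2 of these again without overlap. Numbers 3 and 6 went the other way (-0.37 and -0.18), and number 6 was not above the negative controls on any array. HARS1 differed by 0.15 (interval -0.17 to 0.48), IARS2 by -0.23 (interval -0.54 to 0.09), PARS2 by 0.55 (interval -0.20 to 1.29) and CARS2 by -0.29 (interval -0.75 to 0.18). Each of these 4 had overlapping groups. The CARS2 probe sets numbered 2 and 3 by level differed by 0.23 and 0.21, in the opposite direction to its brightest, and numbers 4 and 5 by -0.89 and -0.07. Number 4 was above the negative controls on 1 array only (non-SP replicate 3, at 4.69) and number 5 on 0, so neither can be read. The summed level of the endothelial markers was 20.4 to 20.8 in SP and 21.0 to 21.3 in non-SP cells. The sums of the epithelial (70.8 to 73.2 and 70.7 to 73.6), fibroblast (26.5 to 27.2 and 26.6 to 27.6) and leukocyte markers (18.5 to 20.0 and 18.3 to 19.2) overlapped. Among the epithelial markers KRT8 (-0.71) and EPCAM (-0.15) were lower in SP cells without overlap, CDH1 differed by 0.79 with overlap, and 0 passed the adjusted threshold by limma. The part of these markers in the values above was not tested.

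Genes around the synthetases also gave 0 calls between SP and non-SP cells. GATB measured 9.11, 8.80 and 8.47 in non-SP and 8.15, 8.34 and 8.14 in SP cells, a difference of -0.58 (SE 0.18; limma adjusted p = 0.612). QRSL1, named after its values were seen, measured 8.47, 8.26 and 8.43 in non-SP and 8.06, 7.93 and 7.97 in SP cells, a difference of -0.40 (SE 0.12; limma adjusted p = 0.602). Both subunit genes were lower on every SP array than on any non-SP array, while the difference of GATC was 0.21. They were 2 of the 8 genes in their list, where 7.10% of all genes were lower in this way. TRNT1 measured 7.94, 7.36 and 8.07 in non-SP and 8.37, 8.76 and 8.21 in SP cells, a difference of 0.66 (SE 0.23; limma adjusted p = 0.669), again without overlap. It was 1 of the 5 genes in its list, where 4.78% of all genes were higher in SP cells in this way.

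**Figure D4:**
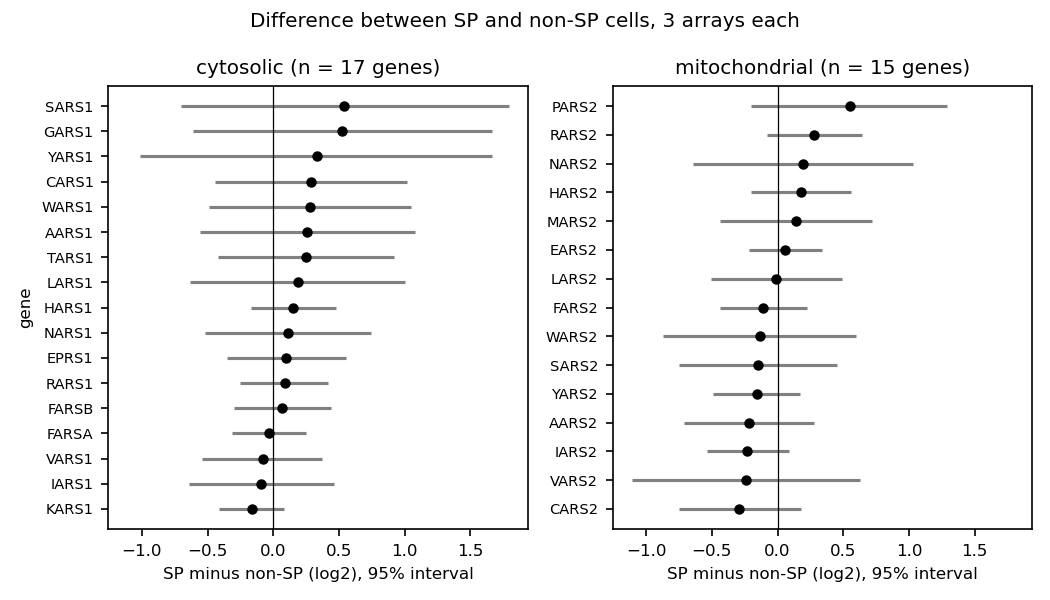
SP minus non-SP difference in log2 level for the 17 cytosolic (left) and 15 mitochondrial (right) genes, with points for the difference and bars for the 95% confidence interval from limma over 3 arrays per group. Every bar spans 0, and the widest belong to genes that separated along the ASNS line, such as YARS1 (-1.01 to 1.66).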

How the data were processed

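Log2 values per probe set were used as deposited. The submitters' processing notes name R 2.8.1, affy and RMA; no further settings were found. RMA gives every array the same distribution, which hides a shift common to all transcripts, and RNA was amplified before labelling, per the labels' protocols. Leaving out 62 control probe sets, 41091 of 54613 carried 1 symbol, 1801 several and 11721 none; 41037 were matched by Entrez ID to GRCh38.p14. Each gene was represented by its brightest probe set on average. SP minus non-SP was tested with limma 3.58.1 (R 4.3.3, two-sided, all 6 arrays) with Benjamini-Hochberg adjustment over 19775 genes, after a test on simulated data. Promoters were searched with Python 3.11.15 for 6 motifs.

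Members and lists were chosen with earlier results of these data known. Values on every array are given for the 9 cytosolic and 6 mitochondrial members with the largest range among those above the median level (6.27), and for the 3 of each with the smallest unadjusted p. Outside the members, ASNS and up to 4 genes per list by range were named; exceptions are marked, and marker genes were named with their lists. Deviations of same-numbered SP and non-SP samples correlated at 0.45, 0.38 and -0.21, so the numbers were not taken as pairs.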

Additional observations from a re-analysis of the deposited data

How the results depend on the processing

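Under 15 alternatives 0 synthetase genes passed the adjusted threshold by limma; the smallest adjusted p was 0.407, with array weights. With the replicate number as a block the counts were 0 and 0 and the medians of SP minus non-SP 0.15 (cytosolic) and -0.11 (mitochondrial). The mitochondrial median was 0.01 with the ASNS side as a block, 0.10 within the arrays below the line and -0.18 to 0.05 with 1 sample left out, highest without SP replicate 2. The cytosolic median was -0.03 with the ASNS side as a block and 0.03 to 0.34 with 1 sample left out.

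Counted by probe set, 21 cytosolic ones were higher and 2 lower on the arrays with high ASNS, where more features are counted. With the mean of each gene's probe sets 11 genes were higher. With 1 array left out such counts can only stay or rise, so the values of 13 to 14 cytosolic genes higher and 0 to 1 lower, and 3 mitochondrial genes higher and 5 to 7 lower, say nothing about stability. These counts were added after seeing the data. Cytosolic minus mitochondrial kept its sign on each array under the 5 settings run for it.

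Of 147 alternative values for 9 members 6 changed sign: RARS2 (-0.37 and -0.18), CARS2 (0.23 and 0.21) and YARS1 (-0.04) in single probe sets, and YARS1 (-0.17) with the ASNS side as a block; the cause was not tested. Precision is limited by 3 arrays per group.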
